A study of Mus musculus with 18 samples.

Results

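The genes described here are 9 integrin subunit genes, *Itgax*, *Itgam*, *Itgal*, *Itgb2*, *Itga4*, *Itgb1*, *Itgav*, *Itga5* and *Itgb7*, together with *Icam1*, which encodes a ligand of integrins on the surface of leukocytes and other cells. They were chosen by name and matched to the symbols of the deposited gene table, where each of the 10 was found once among 62197 genes. Bulk RNA was sequenced from bone marrow-derived dendritic cells (DCs) of cPLA_2_ WT and cPLA_2_ KO mice, the latter labelled as knockouts of cytosolic phospholipase A_2_ (encoded by *Pla2g4a*). Some cells were left nonconfined, some were squeezed to a height of 3 µm between surfaces (confined), and some received lipopolysaccharide (LPS), a bacterial activator of DCs. The study asked how the response of DCs to being squeezed depends on cPLA_2_, with LPS as a second way to activate them.

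There were 6 conditions with 3 libraries each, which are cPLA_2_ WT and cPLA_2_ KO labels in each of the 3 treatments. All cells were grown for 10 days with supernatant that contained granulocyte-macrophage colony-stimulating factor, and the study's methods recover the semiadherent cells of the culture. Nonconfined cells were collected directly when the culture ended and confined cells 4 h after confinement. LPS was given at 100 ng ml-1 for 30 min according to the labels (25 min in the study's methods), then washed away, and these cells were collected the next day. Time and handling thus differ together with the treatment and cannot be told apart from it. The labels give the genotypes as WT and KO of cPLA2 and name no allele, and they give no age or sex. In the study's methods the knockout is a conditional *Pla2g4a* allele crossed with *Itgax*-*cre*, a Cre driven by the promoter of *Itgax*, which is itself one of the genes described, and bone marrow came from mice 6 to 8 weeks old. Reads on genes ranged from 34689393 to 45020354 in nonconfined cPLA_2_ WT and 36034820 to 45021696 in nonconfined cPLA_2_ KO libraries, and after confinement 33592725 to 45769637 in cPLA_2_ WT and 33027230 to 39400286 in cPLA_2_ KO libraries. They ranged from 52116837 to 61300021 in the libraries labelled LPS cPLA_2_ WT and from 39609637 to 45160523 in those labelled LPS cPLA_2_ KO. Values below are normalized counts, the reads on a gene divided by a size factor for the library. Each of the 10 genes had at least 1454 of them in each of the 18 libraries.

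Integrins are heterodimers of an α and a β subunit that bind ligands outside the cell and link them to the actin cytoskeleton. On leukocytes, the β2 subunit pairs with αL to form LFA-1, with αM to form Mac-1 and with αX to form CD11c/CD18, and LFA-1 and Mac-1 bind ICAM-1. The β1 subunit pairs with α4 and α5, among others, to bind VCAM-1 and fibronectin, αv receptors bind matrix proteins that carry an RGD motif, and β7 pairs with α4 or αE in cells that home to or stay in epithelia and gut. DCs use integrins to adhere and to contact T cells but can move through confining tissue without them.

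The targeted gene was checked first. *Pla2g4a* (GSMG0002495) was counted at 697, 686 and 770.4 in the nonconfined cPLA_2_ WT libraries and at 548, 542 and 533 in the nonconfined cPLA_2_ KO libraries. *Pla2g4a* counts after confinement were 1369, 1430.3 and 1321 in cPLA_2_ WT and 923, 871 and 919.5 in cPLA_2_ KO libraries. In both treatments the cPLA_2_ KO libraries lay below the cPLA_2_ WT libraries without overlap, at a log2 fold change of -0.41 (adjusted p = 0.00019 from limma) in nonconfined and -0.60 (adjusted p = 3.8e-08) in confined DCs, and the transcript was lower but not absent. The LPS libraries did not follow their labels. *Pla2g4a* was counted at 1005, 969 and 967 in the libraries labelled LPS cPLA_2_ WT and at 1065, 1032 and 1028 in those labelled LPS cPLA_2_ KO, which were slightly higher, at a log2 fold change of 0.09 (adjusted p = 1.0).

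Other genes that part the genotypes also crossed the LPS labels. The Y-linked gene *Ddx3y* was counted between 0 and 3.05 in the 6 nonconfined and confined cPLA_2_ WT libraries and between 874 and 1036 in the 6 cPLA_2_ KO libraries, so genotype and the sex of the donors cannot be told apart there. *Ddx3y* counts were 1271, 0 and 662 in the libraries labelled LPS cPLA_2_ WT and 2.12, 1476 and 783 in those labelled LPS cPLA_2_ KO. *Acot1*, chosen with its values known, was counted between 0 and 6.76 in the nonconfined and confined cPLA_2_ WT libraries and between 377 and 626 in the cPLA_2_ KO libraries. It was counted at 54.9, 0.92 and 33.6 in the libraries labelled LPS cPLA_2_ WT and at 0, 49.2 and 40.7 in those labelled LPS cPLA_2_ KO. Both labels thus hold a library with high, a library with intermediate and a library with almost no *Ddx3y*, and no LPS library reached the *Acot1* level of the cPLA_2_ KO libraries. Between the LPS labels limma called 0 of 17875 genes tested, as did edgeR and DESeq2, with 890, 812 and 831 genes at an unadjusted p under 0.05. For these reasons the 6 LPS libraries were pooled without regard to genotype, and no effect of cPLA_2_ is read from them.

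The marker genes of DCs were present, and so were markers of other cells that such cultures hold. The study's methods state that the great majority of recovered cells carry CD11c, that granulocytes are lost as nonadherent cells and that macrophages stay on the plate, and the sums below do not give the number of cells of a type. The summed level of 10 DC markers, of which *Cd74* was the most abundant and *Itgax* is one, was 454696, 429065 and 434560.2 in nonconfined cPLA_2_ WT and 537138, 506968 and 525223 in nonconfined cPLA_2_ KO libraries. It was 420994, 392375 and 404603 in confined cPLA_2_ WT and 371325, 357250.2 and 370147 in confined cPLA_2_ KO libraries. In the libraries labelled LPS cPLA_2_ WT it was 661182, 574404 and 607255, and in those labelled LPS cPLA_2_ KO it was 579499, 648931 and 624260.1. With confinement limma called 2 of the 10 DC markers higher and 7 lower in cPLA_2_ WT DCs (beside 28.2% and 28.4% of all genes tested). In cPLA_2_ KO DCs it called 0 higher and 9 lower (beside 22.8% and 23.4%). The DC sum was lower after confinement than in nonconfined cells of either genotype. Its direction with LPS depends on the scaling, since as a percent of all normalized counts of a library it was 1.20% to 1.34% in the 6 LPS libraries, 1.26% to 1.33% in nonconfined cPLA_2_ WT and 1.47% to 1.52% in nonconfined cPLA_2_ KO libraries.

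Neutrophil markers differed between genotypes. Their sum over 10 genes, with *S100a9* the most abundant, was 239174, 244267 and 242642 in nonconfined cPLA_2_ WT and 370358, 333024 and 358226 in nonconfined cPLA_2_ KO libraries, and after confinement 154396, 147187 and 144998 in cPLA_2_ WT and 334024, 346858 and 330984 in cPLA_2_ KO libraries. After LPS it was 309149, 290445 and 292500.5 under the cPLA_2_ WT label and 277078, 312719 and 294718 under the cPLA_2_ KO label. Confined cPLA_2_ WT libraries were the lowest of all 6 conditions, and confined cPLA_2_ KO libraries overlapped with the nonconfined cPLA_2_ KO libraries. The sum of 7 eosinophil markers, with *Prg2* the most abundant, was 30572, 30409 and 30341 in nonconfined cPLA_2_ WT and 74532, 69353 and 71282 in nonconfined cPLA_2_ KO libraries, and after confinement 8549, 8107 and 8012 in cPLA_2_ WT and 19824, 19390.3 and 20384 in cPLA_2_ KO libraries. After LPS the eosinophil sum was 43439, 25335 and 34439.5 under the cPLA_2_ WT label and 25175, 43235 and 35162 under the cPLA_2_ KO label. The eosinophil sum was therefore higher in cPLA_2_ KO than in cPLA_2_ WT libraries in both treatments and fell with confinement in both genotypes.

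The sum of 10 macrophage markers, with *Csf1r* the most abundant in nonconfined and confined cPLA_2_ KO libraries and *Cd14* in confined cPLA_2_ WT and LPS libraries, was 68039, 64682 and 65764 in nonconfined cPLA_2_ WT and 70389.7, 74128 and 71924 in nonconfined cPLA_2_ KO libraries, and after confinement 199997, 190573 and 191944 in cPLA_2_ WT and 87855, 80581 and 85552 in cPLA_2_ KO libraries. It was 142718, 147528 and 139480.0 under the LPS cPLA_2_ WT label and 142485, 137450.4 and 141518 under the LPS cPLA_2_ KO label. Although this sum was highest in confined cPLA_2_ WT libraries, 2 of the 10 macrophage markers rose and 5 fell with confinement there. Of all genes tested 28.2% were higher and 28.4% lower in that comparison. The sum of 8 mast cell and basophil markers, with *Cpa3* the most abundant in 12 of the 18 libraries and *Prss34* in 6, was 9823, 9887 and 9971 in nonconfined cPLA_2_ WT and 14771, 14234 and 14284 in nonconfined cPLA_2_ KO libraries, and after confinement 4409, 4286 and 4456 in cPLA_2_ WT and 7596, 7366 and 7643 in cPLA_2_ KO libraries. The same sum was 9960.3, 9092 and 9823 under the LPS cPLA_2_ WT label and 9151, 10386 and 9940.4 under the LPS cPLA_2_ KO label. It too was higher in cPLA_2_ KO than in cPLA_2_ WT libraries and lower after confinement.

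Lymphocyte and stromal markers were low by comparison. The sum of 8 lymphocyte markers, nearly all of it *Cd3g* in the libraries without LPS, was 2385, 2361 and 2338 in nonconfined cPLA_2_ WT and 3025, 2764 and 2979 in nonconfined cPLA_2_ KO libraries, and after confinement 749, 775 and 672 in cPLA_2_ WT and 965, 1214 and 1041 in cPLA_2_ KO libraries. It was between 415 and 529.8 in the 6 LPS libraries, where *Cd3g* was counted between 355.3 and 439.4. *Ncr1* and *Klrb1c* of that list had fewer than 10 counts in each of the 18 libraries. The sum of 7 stromal, endothelial and epithelial markers, with *Epcam* the most abundant in 13 of the 18 libraries and *Kdr* in 5, lay between 567 and 1189. No marker gene of the 7 lists was at 0 in all 18 libraries. Most of the integrin genes described are also expressed by neutrophils, macrophages or eosinophils, fewer cells of a type and less RNA per cell cannot be told apart in bulk RNA, and the part of these marker sums in the results was not tested.

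The values of the 10 genes in each library are shown in the plot of counts by gene and condition.

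**Figure D1:**
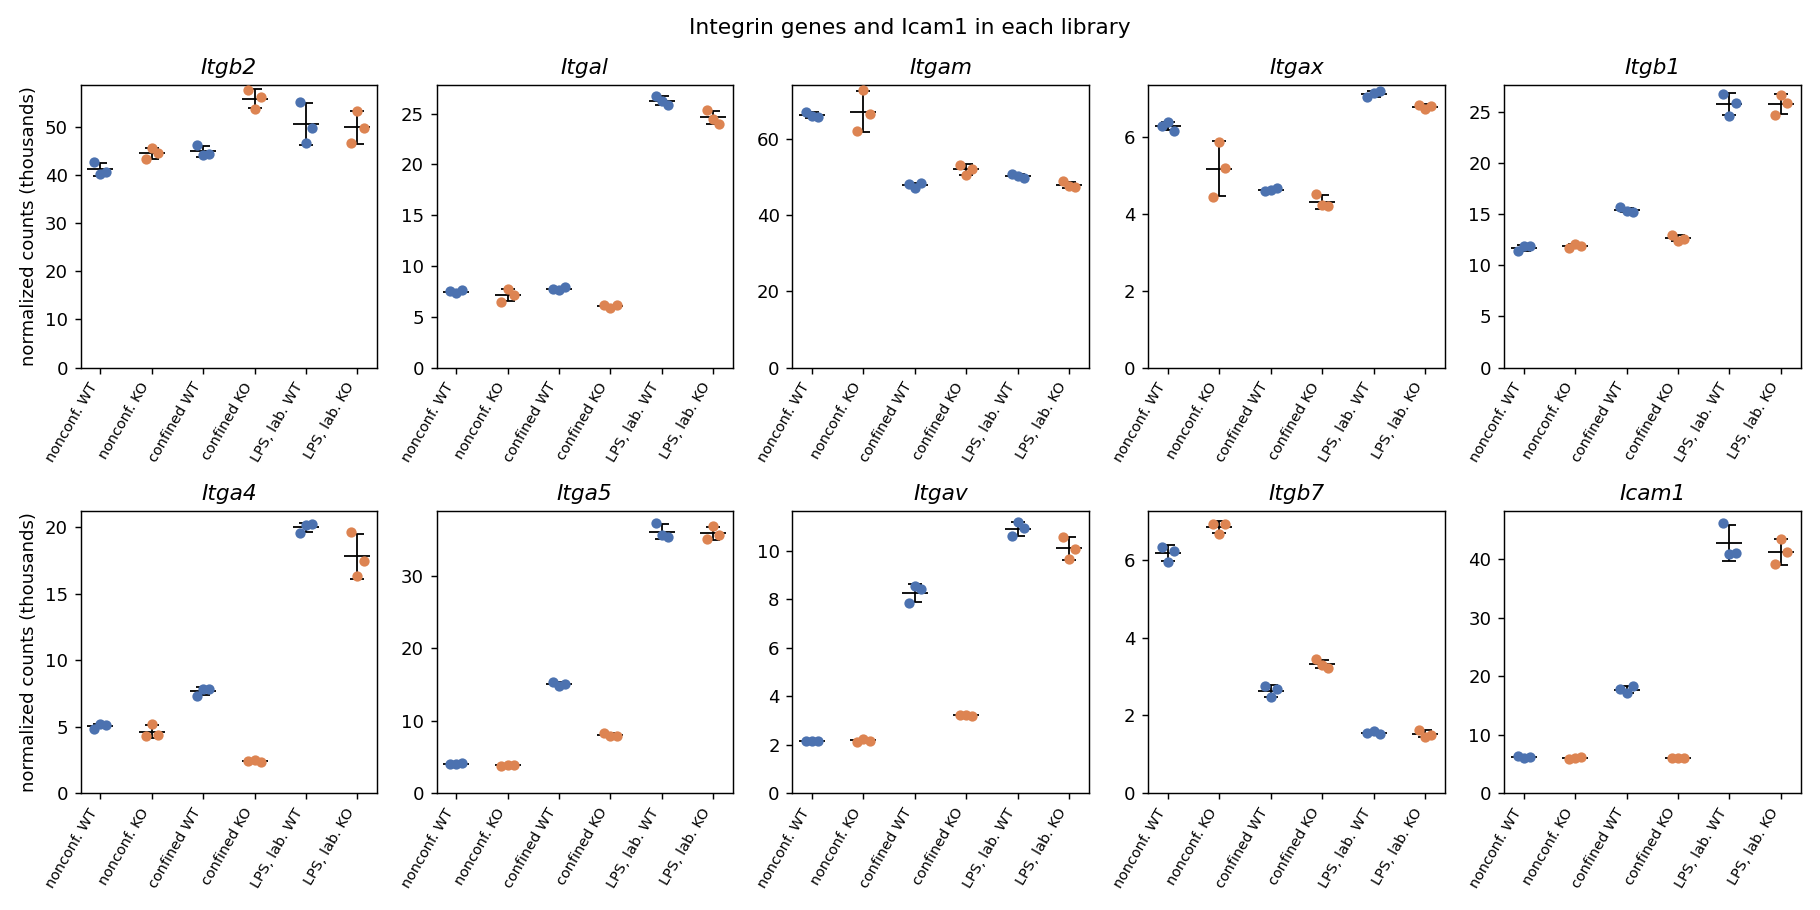
Normalized counts, on linear axes from 0, of the 9 integrin genes and *Icam1* in each of 18 libraries, as points by condition (WT blue, KO orange), with the mean and SD of 3 libraries as lines. The LPS genotypes are those of the labels. *Itga5* lies between 3775 and 4141 counts in the nonconfined, between 7934 and 15359 in the confined and between 35083 and 37274 in the LPS libraries.

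All 10 genes passed a filter on low values (10 or more normalized counts in 3 or more libraries), as did 17875 genes of the table, and limma compared them in 1 model of the 18 libraries. A gene is called higher or lower at an adjusted p under 0.05, and fold changes are on the log2 scale. With confinement of cPLA_2_ WT DCs, 5 of the 10 genes were higher and 3 lower, while 28.2% of all genes tested were higher and 28.4% lower. At an absolute log2 fold change above 1, 3 of the 10 were higher (11.4% of all genes tested) and 1 was lower (7.62% of all genes tested). The median change of the 10 was 0.26, beside -0.01 over all genes tested. With confinement of cPLA_2_ KO DCs, 3 were higher (22.8% of all genes tested) and 5 lower (23.4%), with a median of -0.11 beside 0.01. The interaction, which is the change in cPLA_2_ KO minus the change in cPLA_2_ WT DCs, was above 0 for 0 of the 10 genes (10.2% of all genes tested) and below 0 for 6 (15.6%), and its median was -0.30 beside 0.05. After scaling of all libraries to a common total, the interaction was called above 0 for 4 genes (26.5% of all genes tested), *Itgax* (0.38), *Itgam* (0.29), *Itgb2* (0.39) and *Itgb7* (0.37), and below 0 for 4 (11%), *Itga4*, *Itga5*, *Itgav* and *Icam1*, while *Itgal* and *Itgb1* were no longer called. With LPS, 8 of the 10 were higher (37.2% of all genes tested) and 2 lower (34.3%), and the counts above an absolute log2 fold change of 1 were 6 higher (15.6%) and 1 lower (13.4%). The median change with LPS was 1.47, beside 0.02. With the same total per library, 6 were higher (20.4% of all genes tested) and 4 lower (56.8%) with LPS, *Itgax* and *Itgb2* having changed direction.

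Between genotypes in nonconfined DCs, 0 of the 10 genes were higher in cPLA_2_ KO (4.78% of all genes tested) and 1 was lower (4.11%). In confined DCs, 3 of the 10 were higher in cPLA_2_ KO (18.8% of all genes tested) and 6 lower (20.6%), with a median of -0.33 beside 0.04. Between the LPS labels, 0 of the 10 were higher (0% of all genes tested) and 0 lower (0%), with 2 of the 10, *Itga4* and *Itgav*, at an unadjusted p under 0.05 in limma. Confined cPLA_2_ WT DCs had 1 of the 10 genes higher than LPS-treated DCs (24.5% of all genes tested) and 8 lower (29.8%), with a median of -0.66 beside -0.01. Confined cPLA_2_ KO DCs had 2 higher than LPS-treated DCs (30.3% of all genes tested) and 7 lower (32.5%), with a median of -1.37 beside 0.03. The comparisons with nonconfined cells share the nonconfined libraries, and those with LPS share the LPS libraries, so they are not independent of each other. The total of normalized counts was on average 34125100 in nonconfined cPLA_2_ WT, 39890270 in confined cPLA_2_ WT, 35818964 in confined cPLA_2_ KO and 48718670 in the libraries labelled LPS cPLA_2_ WT. Scaling each library to the same total therefore shifted the median over all genes tested, to -0.23 for confinement in cPLA_2_ WT, -0.02 for confinement in cPLA_2_ KO, 0.24 for the interaction, 0.19 between the genotypes in confined DCs and -0.46 for LPS. It moved it to 0.27 for confined cPLA_2_ WT and 0.46 for confined cPLA_2_ KO against LPS-treated DCs. This scaling moves the changes of all genes in a comparison by nearly the same amount. Rises with confinement of cPLA_2_ WT DCs or with LPS thus become smaller or change direction, and falls become larger. Values below that are given without this scaling move in the same way.

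*Itgb2* (GSMG0003975) encodes the β2 subunit, CD18, which all β2 integrins share. *Itgb2* was counted at 42701, 40275 and 40757 in nonconfined cPLA_2_ WT and at 43382, 45714 and 44652 in nonconfined cPLA_2_ KO libraries. *Itgb2* counts after confinement were 46347, 44167 and 44562 in cPLA_2_ WT and 57737, 53909.7 and 56384 in cPLA_2_ KO libraries. *Itgb2* counts with LPS were 55369, 46831 and 49865 under the cPLA_2_ WT label and 46670.4, 53526 and 49975 under the cPLA_2_ KO label. The confined cPLA_2_ KO libraries held the highest mean and overlapped with an LPS library labelled cPLA_2_ WT, the next condition in order, and the nonconfined cPLA_2_ WT libraries lay below all others. *Itgb2* rose with confinement in cPLA_2_ KO DCs, at 0.33 (SE 0.06, adjusted p = 5.3e-05), whereas in cPLA_2_ WT DCs its change was 0.13 (SE 0.06, adjusted p = 0.059) and not called, and it became -0.10 with the same total per library. That cPLA_2_ WT change was called when any 1 of replicates 1 and 2 under either LPS label was left out of the fit (adjusted p between 0.03 and 0.043), and with TMM scaling, edgeR, DESeq2, a filter of 100 counts and a fit of the conditions compared alone (adjusted p between 0.0033 and 0.049). The interaction was 0.20 (SE 0.08, adjusted p = 0.065) and thus not called, and it was called when any 1 of the same 4 libraries was left out (adjusted p between 0.032 and 0.046), in a fit of the conditions compared alone (adjusted p = 0.0095) and with the same total per library, as given above. With LPS *Itgb2* was higher, at 0.23 (SE 0.04, adjusted p = 2.2e-05), but lower with the same total per library, at -0.27 (adjusted p = 3.2e-07).

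*Itgal* (GSMG0049982) encodes αL, the partner of β2 in LFA-1. *Itgal* was counted at 7512, 7291 and 7629 in nonconfined cPLA_2_ WT and at 6498, 7705 and 7126 in nonconfined cPLA_2_ KO libraries. *Itgal* counts after confinement were 7681, 7664 and 7935 in cPLA_2_ WT and 6112, 5838 and 6108 in cPLA_2_ KO libraries. *Itgal* counts with LPS were 26777, 26210.2 and 25848 under the cPLA_2_ WT label and 25345, 24509.9 and 24010.3 under the cPLA_2_ KO label. All 6 LPS libraries lay more than 3-fold above every other library, while the 4 other conditions lay close together, with the confined cPLA_2_ KO libraries lowest. *Itgal* was higher with LPS, at 1.80 (SE 0.03, adjusted p = 2.7e-21). With confinement it changed by 0.05 (SE 0.05, adjusted p = 0.37) in cPLA_2_ WT DCs, which was not called and became -0.17 (adjusted p = 0.0062) with the same total per library. In cPLA_2_ KO DCs it fell, at -0.24 (SE 0.05, adjusted p = 0.0004). The interaction of -0.29 (SE 0.07, adjusted p = 0.003) was not called with the same total per library, at -0.10 (adjusted p = 0.28).

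*Itgam* (GSMG0050015) encodes αM, or CD11b, of Mac-1. *Itgam* was counted at 66989.8, 65851 and 65702 in nonconfined cPLA_2_ WT and at 62009, 72767 and 66456 in nonconfined cPLA_2_ KO libraries. *Itgam* counts after confinement were 48157, 47091 and 48251 in cPLA_2_ WT and 53198, 50503 and 52065 in cPLA_2_ KO libraries. *Itgam* counts with LPS were 50685, 50069.8 and 49788 under the cPLA_2_ WT label and 48842, 47591 and 47299 under the cPLA_2_ KO label. The 6 nonconfined libraries lay above the 12 confined and LPS libraries without overlap. *Itgam* fell with confinement in cPLA_2_ WT DCs, at -0.47 (SE 0.05, adjusted p = 1.5e-08), in cPLA_2_ KO DCs, at -0.37 (SE 0.05, adjusted p = 1e-06), and with LPS, at -0.44 (SE 0.03, adjusted p = 5.4e-11). The interaction was 0.10 (SE 0.06, adjusted p = 0.28) and not called. Over the fits that left out 1 library it ranged from 0.05 to 0.16, and it was called at 0.16 (adjusted p = 0.031) without nonconfined cPLA_2_ KO replicate 2, the library with the most *Itgam*. In confined DCs *Itgam* was slightly higher in cPLA_2_ KO, at 0.12 (SE 0.05, adjusted p = 0.045), a call that was lost in 11 of the 18 fits that left out 1 library (adjusted p up to 0.14) and with no filter, TMM scaling, the replicate number as a term, edgeR and DESeq2 (adjusted p between 0.056 and 0.13). The libraries of the 11 fits were all 3 of nonconfined cPLA_2_ WT and of confined cPLA_2_ WT, replicate 3 of nonconfined cPLA_2_ KO, replicates 1 and 3 of confined cPLA_2_ KO, and replicate 3 of each LPS label. With the same total per library *Itgam* was still called higher in confined cPLA_2_ KO than in confined cPLA_2_ WT DCs. *Itgam* did not part confined cPLA_2_ WT from LPS-treated DCs, at -0.04 (adjusted p = 0.47), and that value became 0.25 (adjusted p = 1.7e-05) with the same total per library and 0.04 with TMM scaling.

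*Itgax* (GSMG0050016) encodes αX, or CD11c, and its promoter drives the Cre of the knockout. *Itgax* was counted at 6289, 6386 and 6167 in nonconfined cPLA_2_ WT and at 4449, 5879 and 5198 in nonconfined cPLA_2_ KO libraries. *Itgax* counts after confinement were 4599, 4609.9 and 4670.5 in cPLA_2_ WT and 4528, 4227 and 4194 in cPLA_2_ KO libraries. *Itgax* counts with LPS were 7030.2, 7137 and 7192 under the cPLA_2_ WT label and 6846, 6719 and 6796 under the cPLA_2_ KO label. The LPS libraries were highest and the confined libraries low, and the nonconfined cPLA_2_ KO libraries spread from below the confined cPLA_2_ WT libraries to just under the nonconfined cPLA_2_ WT libraries. Of the 10 genes *Itgax* alone was called between the nonconfined genotypes in this fit, lower in cPLA_2_ KO at -0.29 (SE 0.06, adjusted p = 0.0072), with a range of -0.39 to -0.18 over the fits that left out 1 library. *Itgax* fell with confinement in cPLA_2_ WT DCs, at -0.44 (SE 0.06, adjusted p = 4.6e-06), where the libraries did not overlap, and in cPLA_2_ KO DCs, at -0.25 (SE 0.06, adjusted p = 0.0027), where they did, with a range of -0.36 to -0.16 over the fits that left out 1 library. The interaction was 0.19 (SE 0.09, adjusted p = 0.14) and not called. Over the fits that left out 1 library it ranged from 0.08 to 0.28, and it was called at 0.28 (adjusted p = 0.0053) without nonconfined cPLA_2_ KO replicate 2. *Itgax* was higher with LPS, at 0.29 (SE 0.05, adjusted p = 6.7e-06), and at 0.15 (adjusted p = 0.025) against nonconfined cPLA_2_ WT libraries alone, but lower with the same total per library, at -0.21 (adjusted p = 0.00061).

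The α subunits that pair with β2 could be set beside each other per length of exon, because their shares within a library do not depend on its scaling. *Itgam* made up most of the summed count per kb of *Itgal*, *Itgam*, *Itgax* and *Itgad* (αD) in each library. Its counted region also covers an overlapping gene model, *Gm49368*, and ends beyond the gene whose length was used. The level of the *Itgam* share therefore carries this mismatch. *Itgam* had a mean share of 84.1 ± 0.109% (SD, n = 3) in nonconfined cPLA_2_ WT and 85.8 ± 0.425% in nonconfined cPLA_2_ KO libraries, and after confinement 81.4 ± 0.19% in cPLA_2_ WT and 84.8 ± 0.0992% in cPLA_2_ KO libraries. *Itgal* had a mean share of 7.39 ± 0.177% (SD, n = 3) in nonconfined cPLA_2_ WT and 7.07 ± 0.0596% in nonconfined cPLA_2_ KO libraries, and after confinement 10.3 ± 0.137% in cPLA_2_ WT and 7.65 ± 0.0916% in cPLA_2_ KO libraries. Confined cPLA_2_ WT libraries thus held the largest *Itgal* share and the smallest *Itgam* share of the 4 conditions without LPS, and their ranges overlapped with none of the others. *Itgax* held 8.42% of the sum in nonconfined cPLA_2_ WT and 6.95% in nonconfined cPLA_2_ KO libraries, and after confinement 8.3% in cPLA_2_ WT and 7.43% in cPLA_2_ KO libraries, and *Itgad* at most 0.232% on average in any of the 4. An exact two-sided permutation test of 3 libraries against 3 cannot give a p under 0.1, which was the value of these *Itgal* and *Itgam* differences for confinement and for genotype (0.118 after adjustment over the 20 tests of shares).

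In the 6 LPS libraries the *Itgal* share averaged 25.9 ± 0.287% (SD), beside 7.23 ± 0.213% in the 6 nonconfined libraries, a difference of 18.7 percentage points that all 6 libraries show. The *Itgam* share was lower, with a difference of -20.6 points, at 64.3 ± 0.185% beside 84.9 ± 0.946%, and the *Itgax* share higher by 1.93 points, at 9.62 ± 0.157% beside 7.68 ± 0.844%. Each of these 3 differences had p = 0.00217 in the exact two-sided permutation test with n = 6 and 6, the smallest it can give, and 0.0144 after adjustment. This test and limma take the 6 LPS libraries as independent, which is uncertain. The mean chi-square per gene (1 is sampling noise) was 11.5 to 53.8 between LPS libraries of the same label. It was 5.75 between replicate 2 labelled cPLA_2_ WT and replicate 1 labelled cPLA_2_ KO, and 7.02 between replicates 3 of both labels. If such libraries share a source, these p values are too small. The genotype labels of the LPS libraries were set aside, but the 6 nonconfined libraries hold both genotypes, which the permutation test ignores. Nonconfined *Itgax* shares did not overlap between genotypes, at 8.31% to 8.6% in cPLA_2_ WT and 6.52% to 7.28% in cPLA_2_ KO libraries. The size of the *Itgax* difference thus depends on the genotype of the control. All 6 LPS libraries lay above both, at 9.37% to 9.78%. The *Itgad* share did not part the LPS from the nonconfined libraries (difference -0.0489 points, exact permutation p = 0.24).

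**Figure D2:**
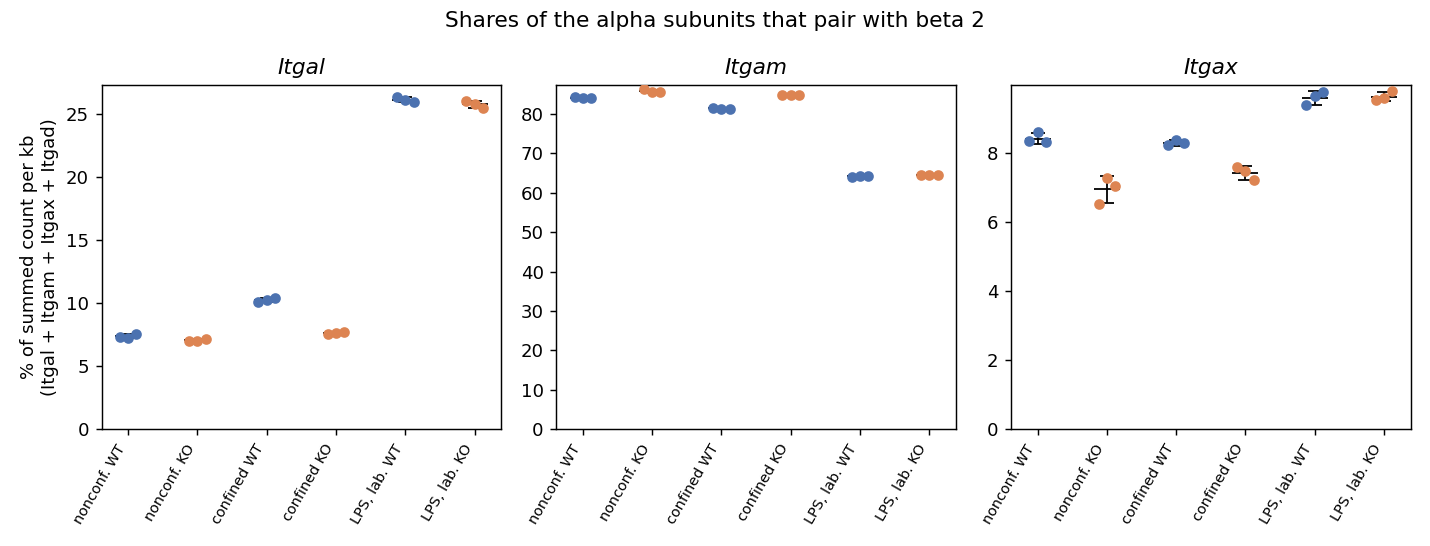
Share (percent, linear axes from 0) of *Itgal*, *Itgam* and *Itgax* in the summed normalized count per kb of union exons of the β2-pairing α subunits (with *Itgad*), in each of 18 libraries as points by condition, with the mean and SD of 3 libraries as lines. *Itgal* lies at a mean of 7.39% in nonconfined WT, 10.3% in confined WT and 26.1% in the libraries labelled LPS WT.

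*Itgb1* (GSMG0054439) encodes β1, the partner of α4 and α5. *Itgb1* was counted at 11347, 11907 and 11849 in nonconfined cPLA_2_ WT and at 11634, 12055 and 11902 in nonconfined cPLA_2_ KO libraries. *Itgb1* counts after confinement were 15657, 15325 and 15197 in cPLA_2_ WT and 12961, 12363 and 12552 in cPLA_2_ KO libraries. *Itgb1* counts with LPS were 26771, 24599 and 25860.2 under the cPLA_2_ WT label and 24710.4, 26634 and 25819 under the cPLA_2_ KO label. The order was nonconfined, confined cPLA_2_ KO, confined cPLA_2_ WT and LPS, with overlap between the genotypes in nonconfined cells and between the LPS labels but between no other neighbours. *Itgb1* rose with confinement in cPLA_2_ WT DCs, at 0.40 (SE 0.04, adjusted p = 3.5e-08), and with LPS, at 1.13 (SE 0.03, adjusted p = 5.1e-19). In cPLA_2_ KO DCs its change with confinement was 0.09 (SE 0.04, adjusted p = 0.079) and not called, although the 3 confined libraries lay above the 3 nonconfined ones. The interaction was -0.31 (SE 0.06, adjusted p = 0.00035), and with the same total per library it was -0.12 and not called (adjusted p = 0.074).

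*Itga4* (GSMG0029561) encodes α4, which binds VCAM-1 and fibronectin when paired with β1. *Itga4* was counted at 4861, 5193 and 5139 in nonconfined cPLA_2_ WT and at 4285, 5233 and 4391 in nonconfined cPLA_2_ KO libraries. *Itga4* counts after confinement were 7333, 7850.4 and 7834 in cPLA_2_ WT and 2390.1, 2535 and 2347 in cPLA_2_ KO libraries. *Itga4* counts with LPS were 19568, 20153 and 20219 under the cPLA_2_ WT label and 19620.1, 16351 and 17429 under the cPLA_2_ KO label. With confinement *Itga4* moved in opposite directions in the genotypes, since all 3 confined cPLA_2_ WT libraries lay above and all 3 confined cPLA_2_ KO libraries below every nonconfined library. The change was 0.60 (SE 0.07, adjusted p = 1.2e-07) in cPLA_2_ WT and -0.93 (SE 0.07, adjusted p = 2.9e-10) in cPLA_2_ KO DCs, and the interaction -1.53 (SE 0.09, adjusted p = 3.3e-11). Both directions held with the same total per library and with TMM scaling. In confined DCs *Itga4* was lower in cPLA_2_ KO, at -1.66 (SE 0.07, adjusted p = 1e-14), while in nonconfined DCs the genotypes overlapped, at -0.13 (adjusted p = 0.25), and were called at -0.22 (adjusted p = 0.02) without nonconfined cPLA_2_ KO replicate 2. *Itga4* was higher with LPS, at 1.96 (SE 0.05, adjusted p = 1.9e-19), above the confined libraries of either genotype.

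*Itga5* (GSMG0020414) encodes α5, which pairs with β1 as the fibronectin receptor. *Itga5* was counted at 4004, 3986 and 4141 in nonconfined cPLA_2_ WT and at 3775, 3859 and 3870.3 in nonconfined cPLA_2_ KO libraries. *Itga5* counts after confinement were 15359, 14848 and 15029 in cPLA_2_ WT and 8307, 7934 and 7958 in cPLA_2_ KO libraries. *Itga5* counts with LPS were 37274, 35609 and 35278 under the cPLA_2_ WT label and 35083, 36852 and 35571 under the cPLA_2_ KO label. The levels form 4 separate steps, nonconfined, confined cPLA_2_ KO, confined cPLA_2_ WT and LPS, and no library of one step overlapped with the next. *Itga5* rose with confinement in cPLA_2_ WT DCs by 1.90 (SE 0.04, adjusted p = 3.2e-20), which is 3.73-fold, and in cPLA_2_ KO DCs by 1.07 (SE 0.04, adjusted p = 2.7e-15), which is 2.1-fold. The interaction was -0.83 (SE 0.05, adjusted p = 6.3e-11). With LPS *Itga5* was higher by 3.19 (SE 0.03, adjusted p = 1.9e-27), or 9.12-fold, the largest change with LPS among the 10 genes.

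*Itgav* (GSMG0029585) encodes αv, a receptor subunit for RGD-bearing matrix proteins and for latent TGF-β. *Itgav* was counted at 2164, 2147 and 2144 in nonconfined cPLA_2_ WT and at 2123, 2251 and 2162 in nonconfined cPLA_2_ KO libraries. *Itgav* counts after confinement were 7834, 8541 and 8414 in cPLA_2_ WT and 3242, 3227 and 3175 in cPLA_2_ KO libraries. *Itgav* counts with LPS were 10612, 11188 and 10941 under the cPLA_2_ WT label and 10566, 9647 and 10084 under the cPLA_2_ KO label. The nonconfined libraries of both genotypes overlapped, the confined cPLA_2_ KO libraries stood just above them, and the confined cPLA_2_ WT libraries were closer to the LPS libraries. The change with confinement was 1.94 (SE 0.04, adjusted p = 4e-19) in cPLA_2_ WT, or 3.84-fold, the largest of the 10 genes, and 0.56 (SE 0.04, adjusted p = 1.2e-09) in cPLA_2_ KO DCs. The interaction was -1.38 (SE 0.06, adjusted p = 1.6e-13). With LPS *Itgav* rose by 2.28 (SE 0.03, adjusted p = 1e-23), and confined cPLA_2_ WT DCs were lower than LPS-treated DCs, at -0.35 (SE 0.04, adjusted p = 1.3e-07), a difference that was not called with the same total per library, at -0.06 (adjusted p = 0.28).

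*Itgb7* (GSMG0020383) encodes β7, which pairs with α4 or αE. *Itgb7* was counted at 6344, 5936 and 6238 in nonconfined cPLA_2_ WT and at 6929, 6675 and 6926 in nonconfined cPLA_2_ KO libraries. *Itgb7* counts after confinement were 2755, 2465 and 2692 in cPLA_2_ WT and 3439.9, 3304 and 3221 in cPLA_2_ KO libraries. *Itgb7* counts with LPS were 1538, 1594 and 1521 under the cPLA_2_ WT label and 1630.3, 1454 and 1506 under the cPLA_2_ KO label. *Itgb7* ran in the opposite order to *Itga5*, with the nonconfined libraries highest and the LPS libraries lowest, and among neighbouring conditions the LPS labels alone overlapped. It fell with confinement in cPLA_2_ WT DCs, at -1.23 (SE 0.05, adjusted p = 1.6e-14), and in cPLA_2_ KO DCs, at -1.04 (SE 0.05, adjusted p = 8.4e-13), and with LPS, at -2.08 (SE 0.04, adjusted p = 7.9e-22). The interaction was 0.18 (SE 0.07, adjusted p = 0.073) and not called, though it was called without confined cPLA_2_ WT replicate 1 (0.22, adjusted p = 0.049), with the same total per library (0.37, adjusted p = 0.00048) and in a fit of the conditions compared alone (adjusted p = 0.045). Confined cPLA_2_ KO libraries held more *Itgb7* than confined cPLA_2_ WT libraries, at 0.33 (SE 0.05, adjusted p = 2.4e-05). Its partner *Itgae* (αE, CD103) fell with it, from a mean of 2132 in nonconfined to 611 in confined cPLA_2_ WT libraries and from 2756 to 1156 in cPLA_2_ KO libraries, and it averaged 462 under the LPS cPLA_2_ WT label.

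*Icam1* (GSMG0056043) encodes ICAM-1, the ligand of LFA-1 and Mac-1. *Icam1* was counted at 6379, 6065 and 6154 in nonconfined cPLA_2_ WT and at 5881, 5947 and 6119 in nonconfined cPLA_2_ KO libraries. *Icam1* counts after confinement were 17799, 17118 and 18271 in cPLA_2_ WT and 6094, 6057 and 5986 in cPLA_2_ KO libraries. *Icam1* counts with LPS were 46315, 40851 and 41074 under the cPLA_2_ WT label and 39141, 43568 and 41239.8 under the cPLA_2_ KO label. Confined cPLA_2_ KO libraries overlapped with the nonconfined libraries of both genotypes, and confined cPLA_2_ WT libraries stood apart between these and the LPS libraries. The change with confinement was 1.52 (SE 0.05, adjusted p = 1.2e-16) in cPLA_2_ WT DCs, or 2.86-fold, and 0.02 (SE 0.05, adjusted p = 0.82) in cPLA_2_ KO DCs, where the same total per library turned it to -0.02 (adjusted p = 0.72). The interaction was -1.50 (SE 0.07, adjusted p = 1.8e-13), between -1.53 and -1.48 over the fits that left out 1 library. With LPS *Icam1* was higher by 2.78 (SE 0.03, adjusted p = 1.7e-24), or 6.89-fold.

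**Figure D3:**
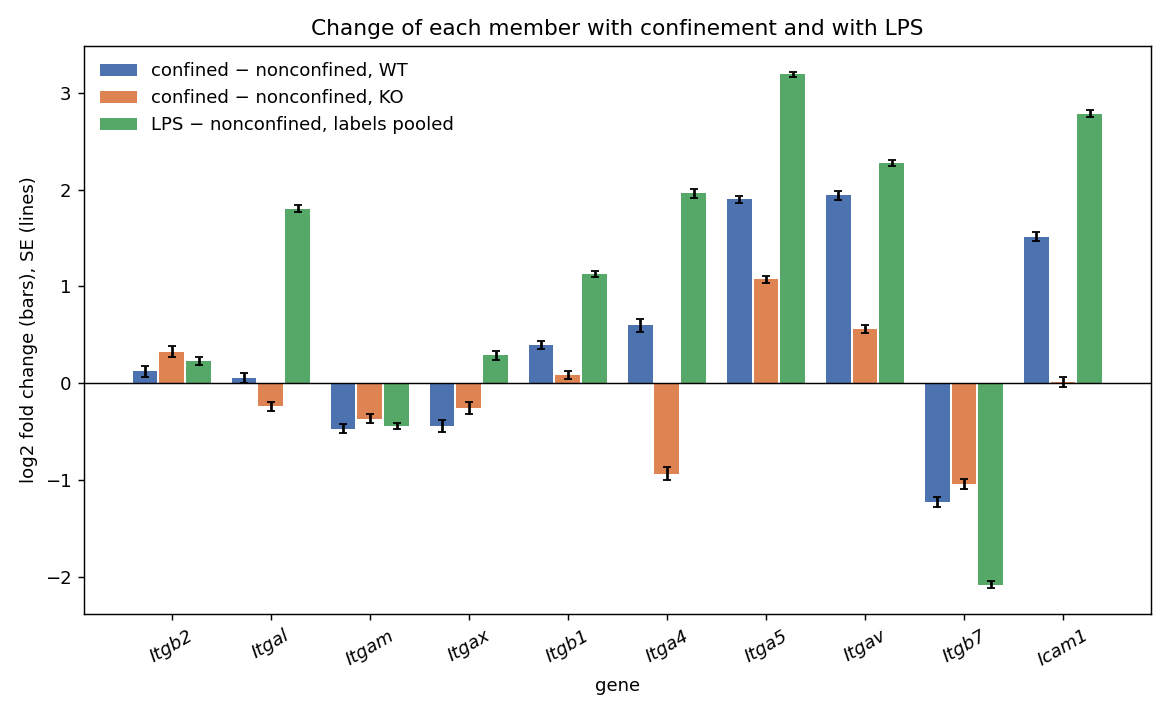
Change (log2 fold change, linear axis) of the 10 genes with confinement in WT (blue), with confinement in KO (orange) and with LPS with the genotype labels pooled (green), as bars from 0 with the standard error as lines. *Itgav* and *Itga5* change by 1.94 and 1.90 with confinement in WT, and *Itga4* by 0.60 in WT and -0.93 in KO. With the same total per library the bars of *Itgal* and *Itgb2* with confinement in WT, of *Icam1* in KO, and of *Itgax* and *Itgb2* with LPS point the other way.

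Side by side, the genotypes in confined DCs differed most in *Itga4*, at -1.66 (adjusted p = 1e-14), followed by *Icam1*, at -1.55 (adjusted p = 1.3e-16), and *Itgav*, at -1.36 (adjusted p = 2.4e-16). *Itga5* was lower in confined cPLA_2_ KO DCs at -0.90 (adjusted p = 1.8e-14), *Itgal* at -0.37 (adjusted p = 2.8e-06) and *Itgb1* at -0.29 (adjusted p = 7.4e-06). *Itgb2* was higher, at 0.31 (adjusted p = 0.00011). The value of *Itgax*, -0.10 (adjusted p = 0.23), was not called and became 0.05 with the same total per library. For all 10 genes the 3 confined cPLA_2_ KO libraries lay entirely on one side of the 3 confined cPLA_2_ WT libraries, as they did for 50.4% of all genes tested. In nonconfined DCs the changes other than that of *Itgax* lay between -0.13 for *Itga4* and 0.15 for *Itgb7* and were not called, and those of *Itgam*, *Itgb1* and *Itgav*, each 0.02, became -0.02, -0.01 and -0.02 with the same total per library. Among these, *Itgb7* was called with DESeq2 (0.15, adjusted p = 0.04) and in a fit of the conditions compared alone (adjusted p = 0.037), and *Itga5* with the same total per library (-0.11, adjusted p = 0.038).

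LPS-treated DCs held more *Itgal* than confined cPLA_2_ WT DCs, whose log2 fold change against LPS was -1.71 (adjusted p = 3e-18). The corresponding values of confined cPLA_2_ WT DCs were -1.30 (adjusted p = 5.8e-14) for *Itga4*, -1.25 (adjusted p = 7.3e-18) for *Itga5* and -1.24 (adjusted p = 5.8e-16) for *Icam1*. They were -0.74 (adjusted p = 1.6e-13) for *Itgb1* and -0.59 (adjusted p = 1.1e-08) for *Itgax*. *Itgb7* alone was higher in confined cPLA_2_ WT DCs in this fit, at 0.77 (adjusted p = 4.6e-12). *Itgb2* was lower than with LPS, at -0.16 (adjusted p = 0.0083), but higher with the same total per library, at 0.13 (adjusted p = 0.01), and not called with TMM scaling (-0.09, adjusted p = 0.13) or edgeR (-0.09, adjusted p = 0.11). Confined cPLA_2_ KO DCs stood further from LPS-treated DCs in *Itga4*, at -2.96, *Icam1*, at -2.80, *Itga5*, at -2.16, and *Itgav*, at -1.71, and in *Itgb7*, at 1.11. In confined cPLA_2_ KO DCs *Itgb2* was higher than with LPS, at 0.16 (adjusted p = 0.0081), although the libraries overlapped. *Itgam* was not called in confined cPLA_2_ KO against LPS-treated DCs, at 0.08 (adjusted p = 0.076), and was called without nonconfined cPLA_2_ KO replicate 1 (adjusted p = 0.036) or replicate 2 (adjusted p = 0.026), with the same total per library (0.53), with TMM scaling (0.12), with edgeR (0.12) and with DESeq2 (0.11).

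Levels of different genes were compared per kb of union exons, as mean normalized counts per kb. In nonconfined cPLA_2_ WT libraries *Itgam* at 12931 per kb and *Itgb2* at 12714 per kb led the 10 genes. As for the shares, reads and length of *Itgam* do not cover the same region, so its order relative to *Itgb2* is uncertain. *Itgb7* at 2127, *Itgb1* at 1960.0, *Itgax* at 1294, *Icam1* at 1248 and *Itgal* at 1136 per kb were intermediate. *Itga5* at 759.8, *Itga4* at 303 and *Itgav* at 174 per kb were lowest. After confinement of cPLA_2_ WT DCs *Icam1* came next at 3568 per kb, before *Itga5* at 2833 per kb, and *Itgb7* had moved down to 909 per kb. After confinement of cPLA_2_ KO DCs *Itgb1* came next at 2115 per kb, *Itga5* was at 1516 and *Icam1* at 1217 per kb. Under the LPS cPLA_2_ WT label *Itgb2* was at 15625, *Itgam* at 9805, *Icam1* at 8603 and *Itga5* at 6774 per kb, and *Itgb7* was the lowest of the 10 at 535 per kb. Between the α partners of β1, *Itga5* stood above *Itga4* per kb in each of the 6 conditions. These levels depend on the length used. Per kb of the canonical transcript *Icam1* was at 1972, *Itga4* at 509 and *Itgav* at 291 in nonconfined cPLA_2_ WT libraries, *Icam1* at 1923 stood above *Itga5* at 1841 in confined cPLA_2_ KO libraries, and *Icam1* at 13596 stood above *Itgam* at 13403 under the LPS cPLA_2_ WT label.

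Beyond the 10 genes, 18 further integrin subunit genes were listed, and 16 of them were tested. Counts for this and the next lists were made with the authors' size factors and move with the shift of all genes given above. With confinement of cPLA_2_ WT DCs 5 of these 16 were higher and 8 lower (beside 28.2% and 28.4% of all genes tested), with a median change of -0.46, and with confinement of cPLA_2_ KO DCs 4 were higher and 5 lower (beside 22.8% and 23.4%), with a median of -0.01, beside 0.01 over all genes. With LPS 1 was higher and 7 lower (beside 37.2% and 34.3%, median -0.28), and the interaction was above 0 for 4 and below 0 for 2 (beside 10.2% and 15.6%). *Itgb8* (β8, a partner of αv) was counted at 1.52, 0 and 0 in nonconfined cPLA_2_ WT and 1.57, 0 and 0 in nonconfined cPLA_2_ KO libraries, and after confinement 119, 135 and 163 in cPLA_2_ WT and 3.24, 1.07 and 1.82 in cPLA_2_ KO libraries. It was counted at 390.1, 404 and 354 under the LPS cPLA_2_ WT label and 337, 280.3 and 352 under the LPS cPLA_2_ KO label. *Itgb8* was thus near 0 in the nonconfined libraries of both genotypes and in confined cPLA_2_ KO libraries, and present in each confined cPLA_2_ WT and LPS library, as the 1 listed subunit that rose with LPS, though limma also called it higher with confinement of cPLA_2_ KO DCs (1.09, adjusted p = 0.038). *Itgae* fell with confinement in cPLA_2_ WT DCs, at -1.80 (adjusted p = 1.4e-11), in cPLA_2_ KO DCs, at -1.25 (adjusted p = 1.2e-08), and with LPS, at -2.38 (adjusted p = 7.5e-17). *Itga6* (α6, a laminin receptor subunit) fell with confinement of cPLA_2_ WT DCs, at -1.58, of cPLA_2_ KO DCs, at -0.72, and with LPS, at -1.15, and *Itgb5* (β5, a partner of αv) fell with LPS, at -1.17.

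Of 15 genes for integrin ligands 12 were tested. With confinement of cPLA_2_ WT DCs 8 were higher and 2 lower (beside 28.2% and 28.4% of all genes tested, median 0.98), with confinement of cPLA_2_ KO DCs 4 were higher and 3 lower (beside 22.8% and 23.4%, median 0.10), and with LPS 10 were higher and 2 lower (beside 37.2% and 34.3%, median 1.44). The interaction was above 0 for 1 of the 12 and below 0 for 7 (beside 10.2% and 15.6%, median -0.84). *Thbs1* (thrombospondin 1) rose from a mean of 18739 in nonconfined to 165354 in confined cPLA_2_ WT libraries, at 3.14 (adjusted p = 6.5e-17), and from 21508 to 56795 in cPLA_2_ KO libraries. *Jam2* (junctional adhesion molecule B, a ligand of α4β1) was counted at 14.5, 7.67 and 10.8 in nonconfined and 175, 161 and 163 in confined cPLA_2_ WT libraries, averaged 32.2 in nonconfined and 46.2 in confined cPLA_2_ KO libraries, and averaged 217 under the LPS cPLA_2_ WT label. *Icam5*, a ligand of LFA-1, rose from a mean of 28.6 to 110.0 with confinement of cPLA_2_ WT DCs, was at 28 in confined cPLA_2_ KO DCs and averaged 642 under the LPS cPLA_2_ WT label. *Vcam1*, the ligand of α4β1, rose with LPS by 2.67 (adjusted p = 5.7e-11), to a mean of 420 under the cPLA_2_ WT label, where the nonconfined cPLA_2_ WT mean was 58.4. *Cdh1* (E-cadherin, the ligand of αEβ7) fell from a mean of 11481 to 3060 with confinement of cPLA_2_ WT DCs, at -1.91 (adjusted p = 1.1e-16), from 11552 to 3283 in cPLA_2_ KO DCs, and to 2016 under the LPS cPLA_2_ WT label. The ligand and the α and β subunits of αEβ7 thus all had lower counts after confinement of either genotype and after LPS.

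Genes that switch integrins between inactive and active states or regulate that step, talins, kindlins, RAP1 and its regulators among them, made a list of 26 symbols, of which 24 were in the table and 23 tested. With confinement of cPLA_2_ WT DCs 9 were higher and 10 lower (beside 28.2% and 28.4% of all genes tested, median -0.04), with confinement of cPLA_2_ KO DCs 5 were higher and 7 lower (beside 22.8% and 23.4%), and with LPS 11 were higher and 7 lower (beside 37.2% and 34.3%, median 0.07). *Sipa1l1* (a GTPase activator for RAP1) rose from a mean of 1171 to 5111 with confinement of cPLA_2_ WT DCs, at 2.12 (adjusted p = 1.5e-16), and was at 1354 in nonconfined and 1333 in confined cPLA_2_ KO DCs. With LPS *Sipa1l1* rose by 1.39 (adjusted p = 1.4e-16), to a mean of 3327 under the cPLA_2_ WT label. *Cyth1* (cytohesin 1, which binds the tail of β2) rose with confinement of cPLA_2_ WT DCs by 1.54 (adjusted p = 3e-15) and of cPLA_2_ KO DCs by 0.76, and *Cytip* (a partner of cytohesin 1) by 1.03 (adjusted p = 3.5e-13) and 0.43. *Rasa3* (a GTPase activator for RAP1) fell with confinement of cPLA_2_ WT DCs, at -1.03, of cPLA_2_ KO DCs, at -0.25, and with LPS, at -1.85, and *Rasgrp2* (an exchange factor for RAP1) fell with confinement of cPLA_2_ WT DCs, at -1.08, and was not called in cPLA_2_ KO DCs, at -0.17 (adjusted p = 0.26). With LPS *Fyb* (an adaptor protein that acts before integrin activation) rose by 1.35 and *Rap1b* by 1.27, and *Sipa1* (another GTPase activator for RAP1) fell, at -1.10.

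A list of 28 symbols for the adhesion complexes that form at integrin tails had 26 in the table and 25 tested. With confinement of cPLA_2_ WT DCs 15 were higher and 4 lower (beside 28.2% and 28.4% of all genes tested, median 0.31), with confinement of cPLA_2_ KO DCs 10 were higher and 6 lower (beside 22.8% and 23.4%, median 0.00), and with LPS 15 were higher and 5 lower (beside 37.2% and 34.3%, median 0.41). Between nonconfined genotypes 0 of the 25 were called by limma (4.78% of all genes tested were higher and 4.11% lower). The kinase gene *Src* rose from a mean of 268 to 2052 with confinement of cPLA_2_ WT DCs, at 2.93 (adjusted p = 1.1e-18), from 265 to 603 in cPLA_2_ KO DCs, and with LPS by 3.35 (adjusted p = 4.6e-23). *Syk* (a kinase downstream of β2 and β3 integrins) rose by 1.13 with confinement of cPLA_2_ WT DCs, by 0.70 in cPLA_2_ KO DCs and by 1.78 with LPS. Of 14 other adhesion genes, tetraspanins and others, 9 were higher and 3 lower with confinement of cPLA_2_ WT DCs (beside 28.2% and 28.4% of all genes tested, median 0.77), 6 were higher and 4 lower with confinement of cPLA_2_ KO DCs (beside 22.8% and 23.4%, median 0.03), and 7 were higher and 5 lower with LPS (beside 37.2% and 34.3%, median 0.59). Between nonconfined genotypes 8 of these 14 were higher in cPLA_2_ KO and 0 lower (median 0.25). *Cd81* (a tetraspanin that associates with β1 integrins) rose by 1.51 with confinement of cPLA_2_ WT DCs, by 0.67 in cPLA_2_ KO DCs and by 1.52 with LPS, and *Cd44* (a hyaluronan receptor) by 1.23, 0.99 and 1.45. *Cd82* (a tetraspanin) rose by 1.29 with LPS.

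For each gene the genes with the most similar pattern were found by the Pearson correlation of log2 values over the 18 libraries, among 10421 genes with 1 symbol and a mean of at least 100 counts. The libraries fall into clusters by condition, so r mostly follows the condition means and is given as a description. *Icam1* was most similar to *6530402F18Rik* (r = 0.999), *Cd40* (0.999) and *Plagl2* (0.997), and *Itga5* to *Mmp13* (0.999), *Anxa7* (0.998) and *Mdfic* (0.997). *Itgav* was most similar to *N4bp1* (r = 0.998), *Nfkb1* (0.997) and *Tnfaip3* (0.997), and *Itgb1* to *Azi2* (0.999), *Tnf* (0.998) and *Ppp1cb* (0.998). *Itgal* was most similar to *Cx3cl1* (r = 0.997), *Mtdh* (0.995) and *Ly75* (0.994), and *Itga4* to *Parp9* (0.995), *Tmem123* (0.995) and *Trim30a* (0.994). For *Itgb7* these genes were *Gm2a* (r = 0.996), *Vrk1* (0.996) and *Rpa1* (0.995), for *Itgam* *Phactr2* (0.977), *Mns1* (0.977) and *Uggt1* (0.976). For *Itgax* they were *Mtmr1* (r = 0.968), *Bmp2k* (0.967) and *Eif4g1* (0.967), and for *Itgb2* *Ctsd* (0.966), *Lamp1* (0.956) and *Bhlhe41* (0.955). Among the 10 genes themselves, *Itgb1* and *Icam1* had r = 0.977, *Itgav* and *Itga5* 0.974, and *Itga5* and *Itgb7* -0.99, the most negative value of the 45 pairs. *Itgb2* followed none of its α partners closely, with r = 0.252 for *Itgal*, -0.538 for *Itgam* and -0.129 for *Itgax*.

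On GRCm39, the α partners of β2 lie on the plus strand of chromosome 7, *Itgal* at chr7:126895432-126934309, *Itgam* at chr7:127661812-127727334 and *Itgax* at chr7:127728718-127749829, followed by *Itgad*. In the table *Itgam* ends 1383 bases before *Itgax* begins and covers the whole of the gene model *Gm49368*, which overlaps it on the same strand, so reads of these cannot be told apart. *Itgb2* lies on chromosome 10 at chr10:77366181-77401542 and *Itgb1* on chromosome 8 at chr8:129412135-129460060, both on the plus strand. *Itga4* at chr2:79085769-79163464 and *Itgav* at chr2:83554741-83637261 lie on the plus strand, *Itgb7* at chr15:102124431-102140371 and *Itga5* at chr15:103252716-103275218 on the minus strand. *Icam1* lies at chr9:20927236-20940109 on the plus strand. *Itga4*, *Itgav* and *Icam1* overlap with annotated genes on the opposite strand. The libraries are strand-specific, but whether reads were counted by strand is not given in the sources used here.

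Promoter sequences are shown for the 4 genes whose change with confinement differed most between the genotypes, *Icam1*, *Itga4*, *Itgav* and *Itga5*. They are the 250 bases before the gene's start, from RefSeq on GRCm38.p6, written 5′ to 3′ on the strand of the gene. Of the 10 genes 8 were found in that table, all but *Itgal* and *Itgb2*. Capitals mark matches to 3 motifs searched on both strands, GGANNTTCC (NF-κB), TTCNNNGAA (GAS, bound by STAT factors) and GAGGAAG (an ETS core, CTTCCTC on the other strand). These are found in 3.59%, 7.02% and 10.6% of all 32851 promoters of this length. The *Icam1* promoter holds GGAAATTCC from 153 to 145 bases before the start and TTCCCGGAA from 42 to 34 bases before it. The *Itgav* promoter holds CTTCCTC from 8 to 2 bases before the start, and that of *Itgam*, not printed, GAGGAAG from 84 to 78 bases before it. None of the 3 motifs is in the windows of *Itga4*, *Itga5*, *Itgax*, *Itgb1* and *Itgb7*. A match describes the letters alone. The windows are chr9:21015690-21015939 on the plus strand for *Icam1*, chr2:83724147-83724396 on the plus strand for *Itgav*, chr2:79255176-79255425 on the plus strand for *Itga4* and chr15:103366792-103367041 on the minus strand for *Itga5*.
Icam1: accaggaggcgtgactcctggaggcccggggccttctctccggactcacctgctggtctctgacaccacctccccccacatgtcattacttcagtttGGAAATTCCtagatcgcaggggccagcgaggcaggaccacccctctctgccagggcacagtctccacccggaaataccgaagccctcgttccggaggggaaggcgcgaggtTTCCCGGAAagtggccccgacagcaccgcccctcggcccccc
Itgav: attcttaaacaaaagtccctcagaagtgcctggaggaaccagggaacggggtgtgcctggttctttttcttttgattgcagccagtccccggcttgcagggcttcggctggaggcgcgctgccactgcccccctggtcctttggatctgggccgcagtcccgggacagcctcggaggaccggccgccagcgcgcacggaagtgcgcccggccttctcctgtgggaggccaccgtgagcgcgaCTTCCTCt
Itga4: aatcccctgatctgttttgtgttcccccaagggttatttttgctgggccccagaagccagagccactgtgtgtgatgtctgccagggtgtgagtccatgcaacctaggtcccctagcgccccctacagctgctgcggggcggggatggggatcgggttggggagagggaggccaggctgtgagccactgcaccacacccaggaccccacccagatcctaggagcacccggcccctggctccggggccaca
Itga5: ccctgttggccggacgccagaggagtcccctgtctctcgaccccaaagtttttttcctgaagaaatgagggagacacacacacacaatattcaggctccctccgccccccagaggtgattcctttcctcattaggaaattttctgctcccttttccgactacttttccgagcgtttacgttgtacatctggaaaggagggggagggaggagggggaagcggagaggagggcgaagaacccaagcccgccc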

How the data were processed

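The authors mapped reads with STAR 2.7.5a to mm39 (GRCm39), counted genes with featureCounts 1.5.0 and normalized with DESeq2 in R 3.5.3, as the submitters' processing notes state. The deposited table gives signal for each gene, without scaling for length. Multiplied by 1 factor per library, 100% of the values were whole within 0.0001, which gave the reads per library. Library kits (TruSeq Stranded mRNA and Illumina Stranded mRNA Prep Ligation) are not stated for single libraries. The protocol text names LPS for each sample, and the titles and treatment entries were followed.

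The members and lists were chosen with earlier results of these data known. Log2(normalized count + 1) was fitted with limma 3.58.1 in R 4.3.3 (lmFit, contrasts.fit, eBayes with trend, a mean per condition, 12 residual degrees of freedom) for the 17875 genes (28.7% of the table) that reached 10 normalized counts in 3 or more libraries, with Benjamini-Hochberg adjustment within each comparison. Values were normalized counts, so limma took the place of a count test. For LPS the mean of both labels was compared with the mean of both nonconfined genotypes. Shares of β2 partners were compared by exact two-sided permutation tests, adjusted over 20. No pair of libraries agreed within sampling noise (a mean chi-square per gene of 1), so none was merged. The mean chi-square ran from 4.24 to 53.8 within a group. Between LPS libraries with different labels it ran from 5.75 to 49.2, and between those with the same label from 11.5 to 53.8.

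The settings varied were the pseudocount (0.5 or 5), the filter (none or 100 counts), the scaling (TMM, or a common total), the count model (DESeq2 1.42.0, or quasi-likelihood in edgeR 4.0.16, with recovered reads), the conditions compared alone, the replicate number as a block, each library left out, a threshold of 1 on the absolute log2 fold change, canonical transcript lengths for the shares, and nonconfined cPLA_2_ WT alone as the control for LPS. With limma, edgeR and DESeq2, 10113, 10102 and 10267 genes were called for confinement in cPLA_2_ WT and 8271, 8348 and 8547 in cPLA_2_ KO DCs. For the interaction 4619, 4569 and 4913 were called, between genotypes 1588, 1576 and 1974 in nonconfined and 7038, 6865 and 7104 in confined DCs, and for LPS 12774, 12785 and 12871. Against LPS, 9701, 9641 and 9757 were called in confined cPLA_2_ WT and 11238, 11306 and 11382 in confined cPLA_2_ KO DCs.

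Of each further list, up to 3 genes with the largest increase and up to 3 with the largest decrease with confinement in cPLA_2_ WT DCs or with LPS were named, if called with an absolute log2 fold change above 1, a mean of at least 100 and no overlap between the libraries compared. Values of *Itgae* with *Itgb7* follow from that rule. Of the genes so selected, 2 are not reported here. *Pla2g4a*, *Ddx3y* and *Acot1* were listed for the check of labels. Lengths are union exons of GENCODE vM39, and promoters are from RefSeq GRCm38.p6. The pipeline was tested on simulated data. Pathway and set tests were left out.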

Additional observations from a re-analysis of the deposited data

Results flagged for a closer look

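For 6 of the 10 genes the change with confinement differed between the genotypes by a test of the difference itself, the limma interaction over 18 libraries (the change in cPLA_2_ KO minus that in cPLA_2_ WT DCs, log2), as for 25.8% of all genes tested. The difference was -1.53 for *Itga4*, -1.50 for *Icam1*, -1.38 for *Itgav*, -0.83 for *Itga5*, -0.31 for *Itgb1* and -0.29 for *Itgal*. With the same total per library *Itgb1* (-0.12) and *Itgal* (-0.10) were no longer called, and *Itgax*, *Itgam*, *Itgb2* and *Itgb7* were called above 0. The genotype cannot be told apart from the sex of the donors in these libraries, and the causes were not tested. Groups of 3 libraries were not tested for single libraries far from the others.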

How the results depend on the processing

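Each of the 90 changes (10 genes, 9 comparisons) was recomputed under the alternatives, which gave 2530 values. Of these, 2449 kept their direction and their side of the threshold, 21 kept the direction but were no longer called, 32 kept it and became called, and 28 changed direction. The cause of the changes in direction was not tested except where the scaling itself sets it.

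With the same total per library, the changes with confinement became -0.17 for *Itgal* and -0.10 for *Itgb2* in cPLA_2_ WT DCs and -0.021 for *Icam1* in cPLA_2_ KO DCs. Between nonconfined genotypes *Itgam*, *Itgb1* and *Itgav* became -0.017, -0.014 and -0.016, and between confined genotypes *Itgax* became 0.054. With LPS *Itgax* and *Itgb2* became -0.21 and -0.27, and in confined cPLA_2_ WT against LPS-treated DCs *Itgam* and *Itgb2* became 0.25 and 0.13. Genes called were then 4 above 0 for the interaction (26.5% of all genes tested), 2 lower between nonconfined genotypes (5.85%), 4 lower with LPS (56.8%) and 3 higher in confined cPLA_2_ WT than in LPS-treated DCs (45.1%). Of all genes called by limma, the share that was higher moved from 49.8% to 32.7% for confinement in cPLA_2_ WT, from 39.5% to 70.7% for the interaction, from 53.8% to 42% and from 47.7% to 69.7% between genotypes in nonconfined and confined DCs, from 52% to 26.4% for LPS, and from 45.2% to 75% and from 48.2% to 77.2% for confined cPLA_2_ WT and cPLA_2_ KO against LPS.

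*Itgam* in confined cPLA_2_ WT against LPS-treated DCs became 0.0361 with TMM scaling, 0.0363 with edgeR and 0.002 with DESeq2, and *Itgb1* between the LPS labels became 0.0004 with TMM scaling and with edgeR. Fits of the conditions compared alone called 2 genes above 0 for the interaction (13.9% of all genes in that fit) and 1 gene higher between nonconfined genotypes (7.35%), as DESeq2 did there (1, beside 5.99%). At an absolute log2 fold change above 1, genes higher and lower, with the shares of all genes tested, were 3 and 1 (11.4% and 7.62%) for confinement in cPLA_2_ WT, 1 and 1 (6.43% and 5.53%) in cPLA_2_ KO, 0 and 3 (1.11% and 6.56%) for the interaction, 0 and 0 (0.85% and 0.302%) between nonconfined and 0 and 3 (2.79% and 7.31%) between confined genotypes, 6 and 1 (15.6% and 13.4%) for LPS, and 0 and 4 (6.97% and 7.84%) and 1 and 6 (10.7% and 12.9%) for confined cPLA_2_ WT and cPLA_2_ KO DCs against LPS.

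Leaving out 1 library at a time gave 0 to 2 genes called above 0 for the interaction (8.48% to 11.1% of all genes in these fits) and 1 to 2 called lower between nonconfined genotypes (1.58% to 6.31%). Changes near 0 changed sign: between nonconfined genotypes *Itgb1* ran from -0.0019 to 0.034, *Itgam* from -0.044 to 0.072 and *Itgav* from -0.0063 to 0.036, and between the LPS labels *Itgb2* ran from -0.072 to 0.049, *Itgb1* from -0.033 to 0.028, *Itga5* from -0.029 to 0.016, *Icam1* from -0.087 to 0.011 and *Itgb7* from -0.067 to 0.015.

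Without LPS, residual correlations between libraries of the same replicate number ran from -0.127 to 0.228 over 18 pairs, so the numbers showed no clear pairing there. Over all 45 pairs of libraries they ran from -0.608 to 0.228. The values of -0.608 and -0.566 were between the 2 LPS labels at replicates 1 and 2, where libraries of the same number thus deviated in opposite directions. With the replicate number as a block, the call of *Itgam* between confined genotypes was lost (0.12, adjusted p = 0.061). Nonconfined cPLA_2_ WT libraries alone as the control for LPS, an alternative chosen after seeing the data, called the same 8 genes higher (35.1% of all genes tested) and the same 2 lower (31.5%).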
